A study of Homo sapiens with 4 samples.

Results

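The fibronectin leucine-rich transmembrane proteins (FLRT1, FLRT2 and FLRT3), the teneurins (TENM1, TENM2, TENM3 and TENM4) and the latrophilins (ADGRL1, ADGRL2 and ADGRL3) are cell surface proteins that bind one another across the gap between neighbouring cells. These 10 genes were taken by symbol from the 48162 genes of the deposited count table. The families were chosen by the read counts of FLRT3 and TENM3, which were near 0 with the vector and high with overexpression in the libraries described here, so the values of these genes are given as a description, with no test. The other 8 genes came in with their families and not for their own counts.

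The 4 libraries hold messenger RNA of NCI-H1703 cells, a human lung cancer line in long use. The 2 vector libraries, A and B, came from cells carrying the pCDNA vector, and the 2 overexpression libraries, A and B, from cells that stably overexpressed EGFR-AS1, a long noncoding RNA made from the strand opposite the growth factor receptor gene EGFR. Per the labels, the cells of all 4 libraries were kept in RPMI medium with 10% serum and 100 µg/ml hygromycin. Passages were 20 to 30 for vector A and 20 to 31 for the others. Whether the overexpressing cells are a clone or a pool, and whether libraries of a group are separate cultures, is not given in the sources used here, so the p-values measure only the spread between these libraries, which may be technical. The libraries held 32601449 to 41518275 reads on genes. EGFR-AS1 had 59 and 37 reads in the vector libraries and 670 and 586 with overexpression, and its level went from 1.28 ± 0.154 to 18.8 ± 2.0 CPM (reads scaled to library size with TMM factors, mean ± SD, n = 2 here and below). Its log2 fold change came to 3.86, with an SE of 0.22 and an edgeR adjusted p of 5.62e-09. EGFR itself was at 364 ± 42.3 and 416 ± 18.5 CPM (log2 fold change 0.19, SE 0.12, edgeR adjusted p = 0.352).

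FLRTs carry leucine-rich repeats outside the cell, with which they bind latrophilins and the UNC5 netrin receptors. Teneurins are very large proteins that bind latrophilins on the opposite cell, and latrophilins are adhesion G protein-coupled receptors, cut in the membrane-proximal GAIN domain into a long adhesive part and a receptor part. In the mouse brain these contacts act in neuron migration, axon guidance and the formation of synapses.

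The promoters of FLRT3 and TENM3, whose transcripts were nearly or wholly missing from the vector libraries, are shown to give the sequence at the start of each gene. They are RefSeq windows on build GRCh38.p14, running from 250 bases before to 50 bases after a transcription start, 5′ to 3′ on the gene's strand, with each CG dinucleotide, the site of DNA methylation, in capitals. TENM3 has starts far apart, and both of its windows are printed.
FLRT3 chr20:14337563-14337862 (minus strand): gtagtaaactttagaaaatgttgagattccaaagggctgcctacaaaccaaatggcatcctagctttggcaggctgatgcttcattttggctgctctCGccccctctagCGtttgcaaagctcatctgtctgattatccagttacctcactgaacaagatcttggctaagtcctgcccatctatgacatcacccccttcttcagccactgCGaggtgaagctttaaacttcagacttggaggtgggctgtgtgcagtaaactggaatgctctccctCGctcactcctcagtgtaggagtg
TENM3 chr4:182143713-182144012 (plus strand): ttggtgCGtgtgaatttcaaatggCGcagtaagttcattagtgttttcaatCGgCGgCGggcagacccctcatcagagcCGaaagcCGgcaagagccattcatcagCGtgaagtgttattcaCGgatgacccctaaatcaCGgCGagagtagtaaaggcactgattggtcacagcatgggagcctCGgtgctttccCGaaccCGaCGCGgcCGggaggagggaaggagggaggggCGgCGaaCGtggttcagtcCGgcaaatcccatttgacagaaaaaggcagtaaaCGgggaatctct
TENM3 chr4:182448766-182449065 (plus strand): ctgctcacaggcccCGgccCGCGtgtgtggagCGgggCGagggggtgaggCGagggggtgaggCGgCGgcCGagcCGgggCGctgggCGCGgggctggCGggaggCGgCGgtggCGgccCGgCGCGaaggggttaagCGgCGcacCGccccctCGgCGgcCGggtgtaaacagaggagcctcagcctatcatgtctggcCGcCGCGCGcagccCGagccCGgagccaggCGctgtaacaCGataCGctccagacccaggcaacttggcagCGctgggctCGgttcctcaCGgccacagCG

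The FLRT3 window held 4 CG dinucleotides, 0.227 of the number its base composition would give, and was 48.7% G or C. The TENM3 windows held 22 and 39 CG dinucleotides, 0.996 and 0.926 of the number from base composition, and were 55.0% and 75.7% G or C. Over all 35116 RefSeq windows of this length the lower quartile, median and upper quartile were 4, 14 and 28 CG dinucleotides, so the FLRT3 window lay at the lower quartile and the TENM3 windows above the median. The 3 windows of FLRT2, the FLRT gene that was expressed in every library, held 19 to 25. Over the 23 windows found for 9 of the 10 genes the count ran from 1 to 52.

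Each window was searched on both strands for the TATA box core TATAA, the promoter box CCAAT, the SP-factor box GGGCGG and the AP-1 site TGACTCA, of which no motif contains another. The FLRT3 window held none of these letters. The TENM3 window with the lower coordinate held CCAAT on the reverse strand and GGGCGG, with their first bases 87 and 18 bases before the start. The other TENM3 window held GGGCGG on the reverse strand, 106 bases before the start. Of all windows, 20.4% held TATAA, 34.6% CCAAT, 44.95% GGGCGG and 4.95% TGACTCA, so these matches are common, and methylation and factor binding were not measured here.

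FLRT3 (ENSG00000125848, chromosome 20) had no read in either vector library, and 3476 and 3999 reads in overexpression A and B. These counts are 105 and 119 CPM, a mean of 112 ± 9.73. The overexpression libraries differed from each other by 1.13-fold, and neither came near the vector libraries. Set against 3 reads in each vector library, which is what a count of 0 allows (0.0708 and 0.0952 CPM, counting error only), FLRT3 was at least 1348-fold higher on the group means, and at least 1103-fold higher in the lower of the overexpression libraries. In libraries made from many cells, more cells with a transcript and more transcript per cell cannot be told apart. Among genes tested, FLRT3 was at the bottom of the order by CPM in the vector libraries and above 87.2% of genes with overexpression.

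A start from no reads to a level of this size was rare in the table. FLRT3 was chosen for these counts, so nothing is read from its rank among such genes. There were 24374 genes without a read in both vector libraries, of which 2138 had a read in an overexpression library and 7 reached 1 CPM in both. FLRT3 was the highest of these 7. It was followed by GJA1, the gap junction protein connexin 43, at 53.0 ± 7.64 CPM, and PCSK1N, a neuroendocrine convertase inhibitor, at 12.5 ± 2.65 CPM. RNF128, an E3 ubiquitin ligase, LIN7A, a scaffold protein, LAMA4, a laminin chain, and FGF5, a growth factor, were at 1.30 to 2.66 CPM. In the opposite direction, 0 genes had no read in both overexpression libraries and 1 CPM or more in both vector libraries.

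FLRT2 (ENSG00000185070, chromosome 14), which binds UNC5 receptors and latrophilins as FLRT3 does, had 674 and 443 reads in the vector libraries and 420 in each overexpression library. Its level was 15.9 and 14.1 CPM with the vector and 12.7 and 12.5 CPM with overexpression, so the groups did not overlap, as for 55.5% of all tested genes. With a log2 fold change of -0.25, an SE of 0.17 and a 95% interval from -0.60 to 0.10, FLRT2 missed the threshold (edgeR adjusted p = 0.358). FLRT1 (ENSG00000126500, chromosome 11) had 11, 4, 8 and 12 reads in vector A, vector B, overexpression A and overexpression B. The groups overlapped, the gene was under the filter on low counts, and the ratio of summed reads was 1.48 (exact 95% interval 0.718 to 3.10, counting error only).

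**Figure D1:**
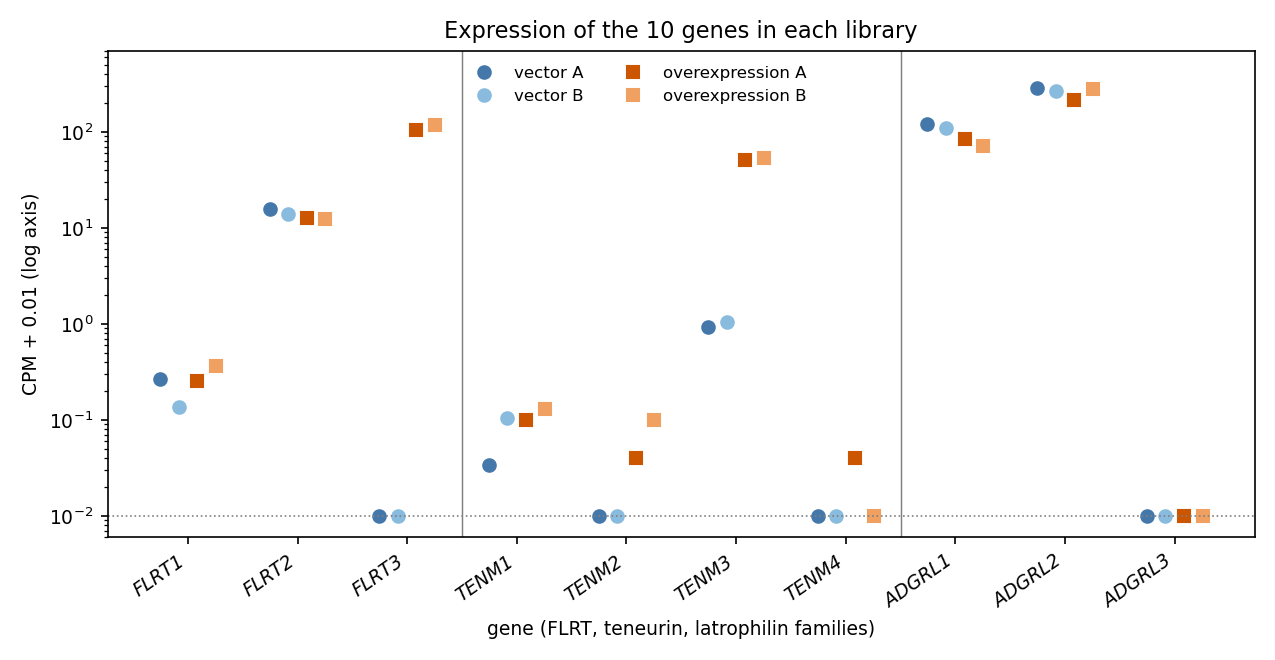
Level of each of the 10 genes in each library, in CPM plus an offset of 0.01 on a log axis, with circles for the 2 vector libraries and squares for the 2 overexpression libraries. FLRT3 goes from 0 to 105 and 119 CPM and TENM3 from about 1 to above 50 CPM, while ADGRL2, ADGRL1 and FLRT2 stay within a narrow range and the other 5 genes lie at or under 0.356 CPM.

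The make-up of the FLRT family is given per kilobase of merged exon, since only then can levels of different genes be compared. The summed level of the 3 FLRT genes was 0.521 and 0.435 CPM per kb in vector A and B, and 20.65 and 23.3 with overexpression. FLRT2 gave 87.4% and 92.6% of the sum in the vector libraries and 1.76% and 1.53% in the overexpression libraries, where FLRT3 gave 97.9% and 98.1%. FLRT2 has a long untranslated part, and its merged exons span 34.9 kb. Over the coding length alone the sum was 8.16 and 7.16 CPM per kb in vector A and B, and 60.45 and 67.46 with overexpression. On that length FLRT3 gave 89.2% and 90.4% of the family in the overexpression libraries, and FLRT2 10.6% and 9.34%.

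TENM3 (ENSG00000218336, chromosome 4), a teneurin known from wiring of the mouse visual system, had 39 and 33 reads in vector A and B and 1679 and 1804 in overexpression A and B. The levels were 0.920 and 1.05 CPM with the vector and 50.7 and 53.6 CPM with overexpression. Both groups were tight, at 0.984 ± 0.0899 and 52.1 ± 2.02 CPM, and the means stood 53.0-fold apart. The fitted log2 fold change of 5.73 was the 29th largest among the 16106 tested genes, below genes with no vector read such as FLRT3. Since TENM3 was chosen for these counts, nothing is read from this rank. TENM3 lay above 16.9% of tested genes with the vector and above 72.0% with overexpression. Unlike FLRT3, it was detected in every library.

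The other teneurins stayed at a few reads. TENM1 (ENSG00000009694, chromosome X) had 1, 3, 3 and 4 reads in vector A, vector B, overexpression A and overexpression B, with a ratio of summed reads of 1.94 (exact 95% interval 0.492 to 9.02). TENM2 (ENSG00000145934, chromosome 5) had 0, 0, 1 and 3 reads, and TENM4 (ENSG00000149256, chromosome 11) had 0, 0, 1 and 0. None of the 3 passed the filter on low counts, and a difference between the groups was not detectable at this depth. TENM3 therefore made up 97.7% and 92.2% of the summed teneurin level per kb in vector A and B, and 99.7% and 99.6% in overexpression A and B, while the sum itself went from 0.0786 and 0.0948 to 4.24 and 4.49 CPM per kb.

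Latrophilins, the receptors that FLRTs and teneurins share, were expressed from 2 of their 3 genes. ADGRL1 (ENSG00000072071, chromosome 19) had 5062 and 3496 reads in the vector libraries and 2798 and 2420 with overexpression, or 119 and 111 against 84.5 and 71.9 CPM. Both overexpression libraries were below both vector libraries, so the groups did not overlap, as for 55.5% of all tested genes. The mean fell from 115 ± 6.0 to 78.2 ± 8.94 CPM, 1.47-fold lower, with a log2 fold change of -0.56 (SE 0.12, 95% interval -0.82 to -0.30, edgeR adjusted p = 0.00555). Without overexpression B the log2 fold change was -0.45, in the same direction, and the call was lost, with a lone library left in that group. ADGRL2 (ENSG00000117114, chromosome 1) was the most abundant of the 10 genes, with 12068, 8456, 7099 and 9358 reads in vector A, vector B, overexpression A and overexpression B. These are 285, 268, 214 and 278 CPM, and overexpression B lay between the vector libraries. ADGRL2 was not called, at a log2 fold change of -0.17 with a 95% interval from -0.45 to 0.12 (SE 0.13, edgeR adjusted p = 0.464). ADGRL3 (ENSG00000150471, chromosome 4) had no read in any library, which allows up to 0.0708 to 0.0952 CPM.

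Of the 10 genes, 5 passed the filter on low counts, and the other 5 had at most 12 reads in a library. Besides FLRT3 and TENM3, 3 were tested, of which 1, ADGRL1, was lower and 0 were higher. Over all genes, 2332 of the 16106 tested were called at an edgeR adjusted p under 0.05, which is 14.5%, with 7.8% higher and 6.67% lower. With 3 genes nothing is read from this count.

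**Figure D2:**
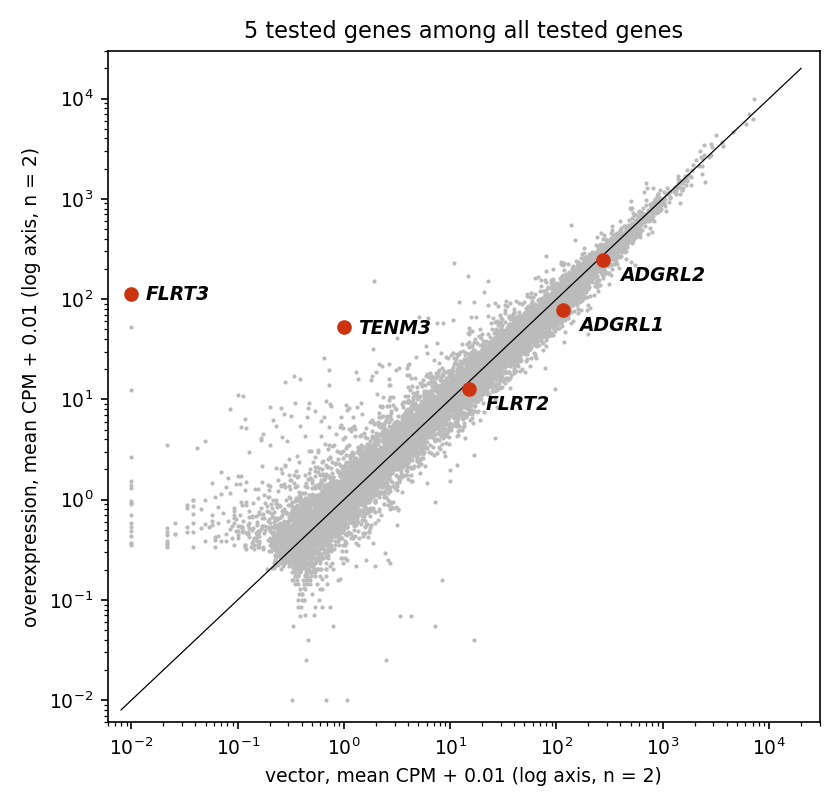
Mean level with overexpression against mean level with the vector, in CPM plus 0.01 on log axes (n = 2 libraries each), for all 16106 tested genes in grey and the 5 tested family genes in red, with the line of equal levels in black. FLRT3 stands on the left edge at 0 against 112 CPM, TENM3 53.0-fold above the line, and FLRT2, ADGRL1 and ADGRL2 close to it.

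The order of levels per kb of merged exon in the vector libraries was ADGRL2 (35.7 ± 1.49 CPM per kb), ADGRL1 (13.6 ± 0.707), FLRT2 (0.429 ± 0.0374), TENM3 (0.0821 ± 0.0075) and FLRT1 (0.0489 ± 0.0237), with TENM1 below and FLRT3, TENM2, TENM4 and ADGRL3 at 0 reads. With overexpression it was ADGRL2 (31.7 ± 5.79), FLRT3 (21.6 ± 1.88), ADGRL1 (9.21 ± 1.05), TENM3 (4.35 ± 0.169) and FLRT2 (0.360 ± 0.00433). No neighbours among the 5 genes given for each group shared a range of values, though FLRT1 in the vector libraries rests on 15 reads. Over the coding length, however, FLRT3 at 57.5 ± 5.0 and ADGRL2 at 55.7 ± 10.2 CPM per kb overlapped, as did TENM3 at 6.44 ± 0.25 and FLRT2 at 6.35 ± 0.0764. Over the longest transcript FLRT3 was at 23.4 ± 2.04 and ADGRL2 at 39.1 ± 7.12 CPM per kb. FLRT3 was therefore below ADGRL2, without overlap, on both lengths that include untranslated parts, and overlapped with it on the coding length. Summed over the family, latrophilins stood at 50.8 and 47.7 CPM per kb with the vector and 37.6 and 44.3 with overexpression, of which ADGRL1 gave 27.7%, 27.4%, 26.5% and 19.1% in the same order of libraries.

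**Figure D3:**
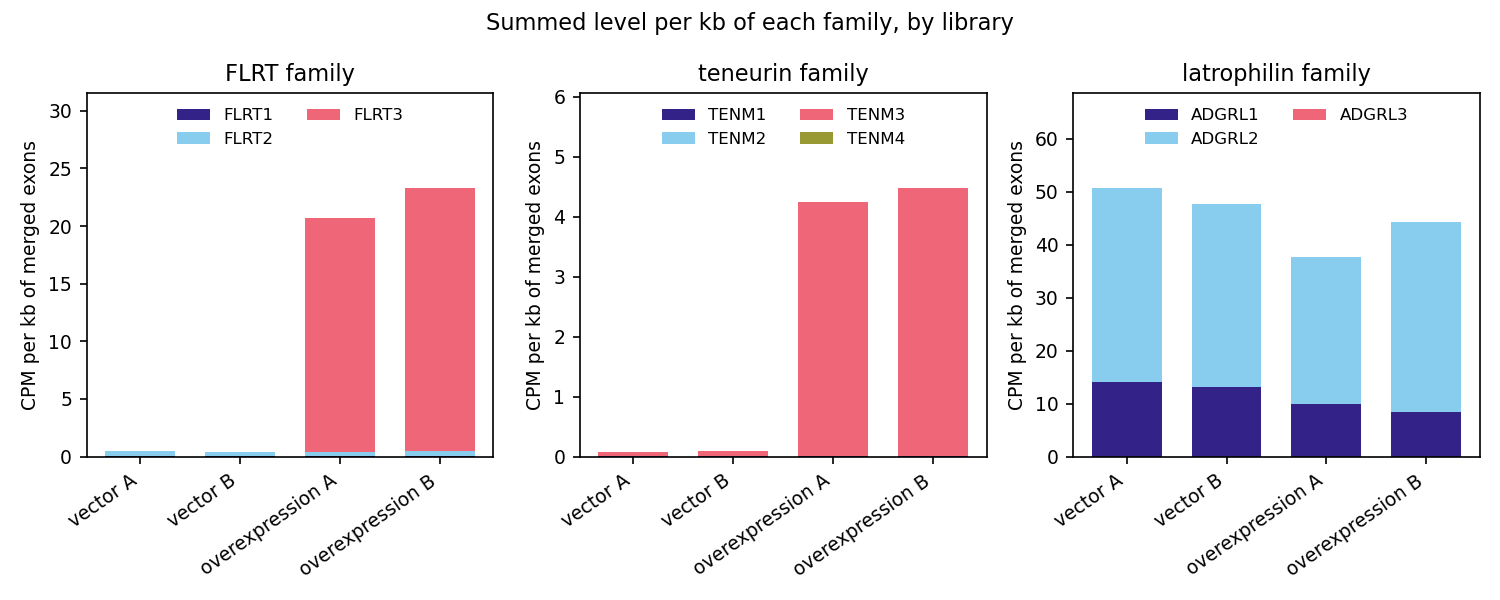
Summed level of each family in CPM per kb of merged exon, 1 bar per library, stacked by gene. The FLRT bars go from 0.521 and 0.435 to 20.65 and 23.3 and change from FLRT2 to FLRT3, the teneurin bars from 0.0786 and 0.0948 to 4.24 and 4.49 with TENM3 throughout, and the latrophilin bars keep ADGRL2 as the larger share.

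The likeness of other genes to FLRT3 and TENM3 was measured as the Euclidean distance over log2(CPM + 0.5) in the 4 libraries, where a small distance means nearly the same level in each library. Nearest to FLRT3 was GJA1, at a distance of 1.52, and the next was TENM3 itself, at 2.70. CXCL2, a chemokine, CCN5, a matricellular protein, and TNIP3, a regulator of NF-kappaB signalling, followed at 3.32, 3.42 and 3.91. The genes nearest to TENM3 were AP1M2, a subunit of an epithelial clathrin adaptor, at 1.38, CCN5 at 1.59, DNAH2, an axonemal dynein, at 1.91, and UGT8, an enzyme of galactolipid synthesis, and RNF212, a meiotic recombination factor, both at 2.06. The distance is a description over 4 libraries, and the genes share those libraries. FLRT3 and TENM3 were chosen for their counts in these same libraries, so nothing is read from their closeness.

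The genes that share or flank each locus in the order of tested genes were read beside FLRT3 and TENM3. FLRT3 lies inside MACROD2, on the opposite strand and without overlap of exons. MACROD2 had 29, 23, 27 and 25 reads in vector A, vector B, overexpression A and overexpression B (log2 fold change 0.14, SE 0.39, edgeR adjusted p = 0.859), so the host gene stayed under 1 CPM in the libraries where FLRT3 was above 100. The nearest tested coding genes on either side of FLRT3 were NDUFAF5 and KIF16B, 501 and 1935 kb away in GRCh38, at log2 fold changes of 0.04 and -0.03 (edgeR adjusted p = 0.928 and 0.939). Those flanking TENM3 were AGA and DCTD, 4702 and 87.0 kb away, at -0.27 and -0.14 (edgeR adjusted p = 0.422 and 0.494).

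TENM3-AS1, annotated on the strand opposite TENM3, had 0, 2, 118 and 102 reads in vector A, vector B, overexpression A and overexpression B. It passed the filter on low counts only through the overexpression libraries, so these reads are given as a description, with no test. The exons of TENM3-AS1 share 2.07% of their bases with exons of TENM3. The strand setting of the counting is not given in the sources used here. Reads of TENM3-AS1 and of TENM3 therefore cannot be told apart wherever the genes overlap, and the TENM3-AS1 counts may include reads of TENM3. FLRT1 lies within MACROD1 without overlap of exons, and 13.6% of its exonic bases lie under an antisense transcript that had 11 to 25 reads, so its few reads are uncertain in the same way.

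Of the 20 nearest tested coding genes flanking the 10 loci, 10.8 to 5390 kb away, 2 were called, beside 14.5% of all tested genes. The other 18 were not called, at log2 fold changes of -0.34 to 0.23, and nothing is read from this count. Both called genes flank ADGRL2, which itself was not called, but that pattern rests on the call of ADGRL4 and nothing is read from it. TTLL7, a tubulin polyglutamylase 1873 kb away, went from 4.09 ± 0.796 to 22.6 ± 1.21 CPM (log2 fold change 2.46, SE 0.19, edgeR adjusted p = 2.32e-07). ADGRL4, an adhesion receptor of endothelial cells 2299 kb away on the other side, had 1, 0, 17 and 17 reads in vector A, vector B, overexpression A and overexpression B. It passed the filter on low counts only through the overexpression libraries, so nothing is read from its call. ASF1B and ADGRE5, 10.8 and 174 kb from ADGRL1, were at 0.23 and 0.01.

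**Figure D4:**
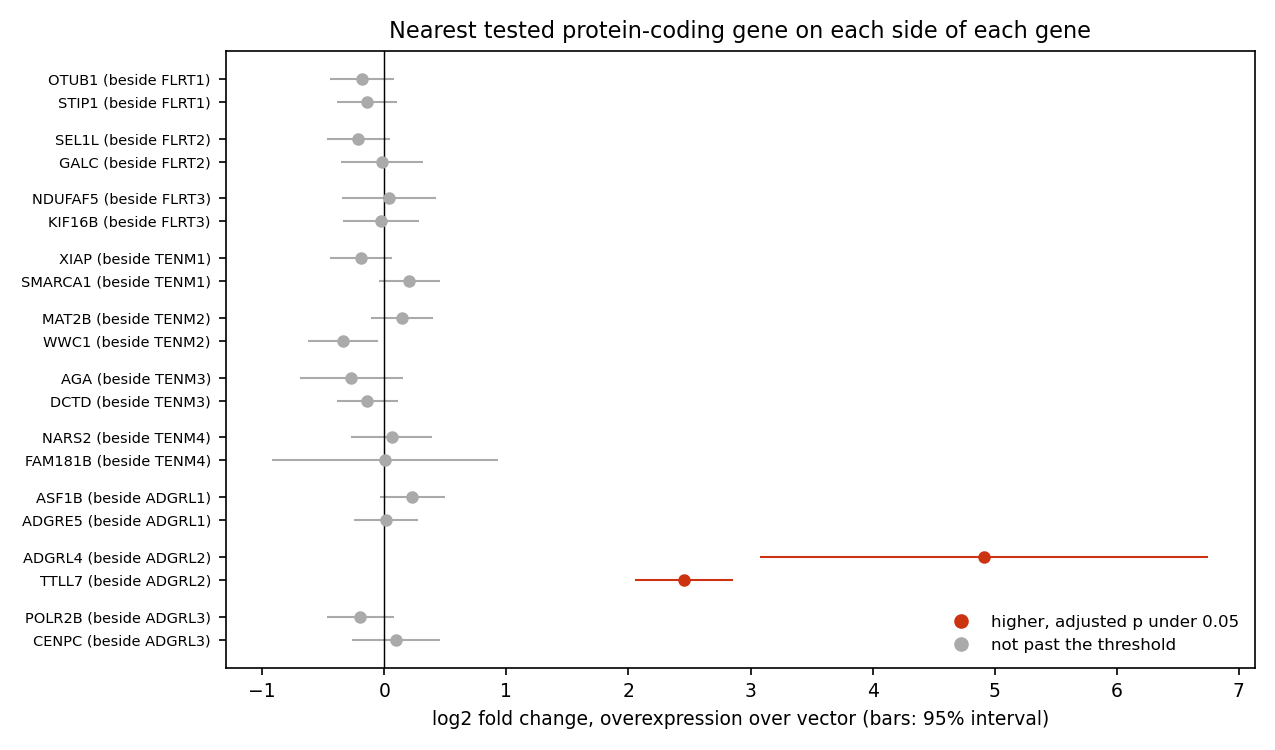
Log2 fold change of the nearest tested coding gene on each side of all 10 loci. The genes flanking FLRT3 and TENM3 lie between -0.27 and 0.04. Of all 20 flanking genes 2 were called, TTLL7 and ADGRL4, beside 14.5% of all tested genes. ADGRL4 passed the filter on low counts only through the overexpression libraries.

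The known binding partners of FLRTs were read from the same fit. UNC5B, a netrin receptor, fell from 13.1 ± 2.06 to 5.31 ± 1.04 CPM (log2 fold change -1.31, SE 0.21, edgeR adjusted p = 0.000385). ROBO1, a guidance receptor with which FLRT3 cooperates in mouse thalamic axons, rose from 88.6 ± 1.59 to 154.6 ± 9.05 CPM (log2 fold change 0.80, SE 0.12, edgeR adjusted p = 0.000207). FGFR1, a growth factor receptor that binds FLRTs, rose from 697 ± 121 to 1442 ± 104 CPM (log2 fold change 1.05, SE 0.13, edgeR adjusted p = 6.16e-05). For each of these 3 genes the groups did not overlap, as for 55.5% of all tested genes. The calls held under each alternative that kept all 4 libraries. Over all 10 alternatives, log2 fold changes ran from -1.53 to -1.12 (UNC5B), 0.74 to 0.85 (ROBO1) and 0.88 to 1.24 (FGFR1). UNC5A was at 0.11 (edgeR adjusted p = 0.861) and RND1, a small GTPase, at -0.91 (edgeR adjusted p = 0.279), while UNC5C and UNC5D had 1 read each over all libraries. Of the 7 partners 5 were tested, 2 rose, 1 fell and 2 did not pass, with a median log2 fold change of 0.11. Over all tested genes 14.5% were called and the median was 0.004, and the list was chosen with earlier results of these data known.

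Of 10 genes of the netrin and repulsive guidance pathway that shares UNC5 receptors, 4 were tested, 1 rose, 2 fell and 1 did not pass, beside 14.5% called over all tested genes. NTN4, a netrin of basement membranes, rose from 1.53 ± 0.102 to 3.37 ± 0.485 CPM (log2 fold change 1.13, edgeR adjusted p = 0.00977). NTN1, the classical netrin, fell from 100.2 ± 7.46 to 76.9 ± 3.59 CPM (log2 fold change -0.38, edgeR adjusted p = 0.0412), and NEO1, its receptor neogenin, from 147 ± 2.65 to 112 ± 4.31 CPM (log2 fold change -0.39, edgeR adjusted p = 0.0321). Without overexpression A 0 of these calls held, without overexpression B only that of NTN4 did, and without vector B that of NTN1 was lost (edgeR adjusted p = 0.113). RGMB was at 0.04 (edgeR adjusted p = 0.907), and DCC, the other main netrin receptor, had no read.

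Partners and effectors of latrophilins gave 1 call among 6 tested of 8, a share near the 14.5% of all tested genes, with a median of -0.36 beside 0.004. SHANK2, a synaptic scaffold of the family that binds latrophilin tails, went from 13.9 ± 0.259 to 9.68 ± 0.455 CPM (log2 fold change -0.53, edgeR adjusted p = 0.0493), and the call was lost with library totals (0.0799), with DESeq2 (0.0554), without overexpression A (0.195) and without overexpression B (0.363). SHANK1, SHANK3, NRXN2 and the G protein genes GNA12 and GNA13 were not called, and CNTN6 had no read. Of the 3 interactors of teneurins, MBD1, a nuclear protein that binds methylated DNA and the teneurin intracellular part, fell from 87.4 ± 0.915 to 57.1 ± 1.96 CPM (log2 fold change -0.61, SE 0.12, edgeR adjusted p = 0.0019). DAG1, the dystroglycan gene, and ZIC1, a transcription factor, were at -0.09 and 0.02 (edgeR adjusted p = 0.682 and 0.971).

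The relatives of latrophilins and FLRTs were counted in the same way. Of 29 other adhesion G protein-coupled receptors 13 were tested, of which 4 were called higher, 1 lower and 8 did not pass, with a median log2 fold change of 0.29, beside 14.5% called over all tested genes and a median of 0.004. The 4 include ADGRL4, which entered the test only through the group where it is high. ADGRG1, a collagen-binding receptor, rose from 1.20 ± 0.192 to 5.25 ± 1.04 CPM (log2 fold change 2.14, SE 0.28, edgeR adjusted p = 6.60e-05), and ADGRG6, a receptor of Schwann cell myelination, from 698 ± 68.8 to 976 ± 41.6 CPM (log2 fold change 0.48, edgeR adjusted p = 0.0120). ADGRB1, a brain receptor also used in the uptake of dying cells, fell from 48.0 ± 7.23 to 31.2 ± 6.20 CPM (log2 fold change -0.62, edgeR adjusted p = 0.0134). The calls numbered 3 rather than 5 without overexpression A, where ADGRG6 was lost (edgeR adjusted p = 0.134). They also numbered 3 without overexpression B, where ADGRG6 and ADGRB1 were lost (edgeR adjusted p = 0.257 and 0.238).

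Of 33 other leucine-rich repeat adhesion proteins, which share the FLRT type of outer domain, 11 were tested, 1 rose, 2 fell and 8 did not pass, with a median of -0.16, beside 14.5% called over all tested genes. SLITRK5, a synaptic adhesion protein, fell from 57.6 ± 2.77 to 25.8 ± 3.65 CPM (log2 fold change -1.16, SE 0.14, edgeR adjusted p = 3.36e-05). LINGO1, a Nogo receptor component, fell from 6.33 ± 0.787 to 2.96 ± 0.819 CPM (log2 fold change -1.10, edgeR adjusted p = 0.00575), and AMIGO1 rose from 6.38 ± 0.586 to 10.8 ± 0.744 CPM (log2 fold change 0.76, edgeR adjusted p = 0.0116). The call of LINGO1 was lost without overexpression B (edgeR adjusted p = 0.126) and that of AMIGO1 without overexpression A (edgeR adjusted p = 0.140). Of 14 other synaptic organisers 9 were tested, 3 were called higher, 3 lower and 3 did not pass, with a median of -0.19, beside 14.5% called over all tested genes. Without overexpression B the calls numbered 2. NLGN2, a neuroligin of inhibitory synapses, rose from 53.0 ± 13.5 to 107 ± 18.0 CPM (log2 fold change 1.02, SE 0.16, edgeR adjusted p = 0.000432), and PTPRF, a receptor phosphatase, from 506 ± 72.3 to 948 ± 124 CPM (log2 fold change 0.91, SE 0.14, edgeR adjusted p = 0.000241). CADM2, counted as lower, had 36, 19, 5 and 0 reads in the usual order of libraries and passed the filter only through the vector libraries. Its fitted log2 fold change of -3.23 became -7.72 without overexpression A and -2.25 without overexpression B, so no test is read from it. CADM4 fell from 12.1 ± 2.32 to 7.24 ± 0.489 CPM (log2 fold change -0.75, edgeR adjusted p = 0.0154, and 0.134 without overexpression B).

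Over the 7 lists, 51 of 104 genes were tested, with 11 called higher, 11 called lower and 29 not called, and a median of -0.13. The share called was 43.1%, beside 14.5% over all tested genes. The lists were chosen with earlier results of these data known and some of their genes are left out, so nothing is read from the difference between these shares. The calls were equal in number in both directions, and they numbered 13 without overexpression A and 12 without overexpression B.

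**Figure D5:**
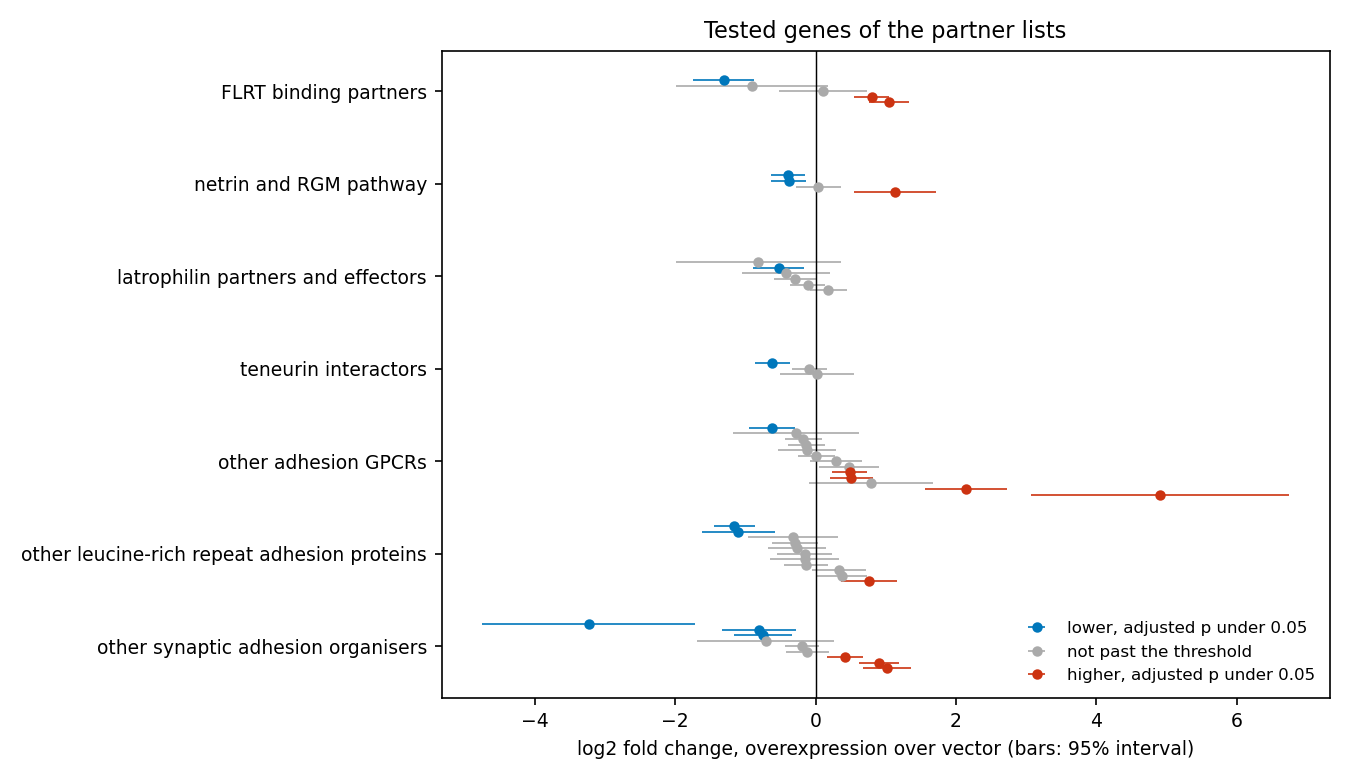
Log2 fold change of each tested gene in the 7 partner lists, 1 row per list, with bars for the 95% interval and blue, red and grey points for lower, higher and uncalled genes. Higher and lower calls, 11 each, lie on both sides of 0, and the list medians run from -0.36 to 0.29.

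Markers of cell types were read beside these values, since FLRTs and teneurins are used by neurons. The 4 neuronal markers analysed had summed levels of 32.6 and 26.7 CPM in vector A and B and 172.5 and 202.8 CPM in overexpression A and B, mostly from MAP2 and SYT1, while SNAP25 had at most 14 reads and RBFOX3 was at 35, 31, 7 and 3 reads. The part of these markers in the FLRT3 and TENM3 levels was not tested. The 5 epithelial markers summed to 73.6 and 88.7 CPM with the vector and to 37.1 and 30.7 CPM with overexpression. These sums came mostly from KRT18, at 68.0 and 82.5 CPM with the vector and 33.8 and 28.2 CPM with overexpression. EPCAM, CDH1 and KRT19 had at most 9 reads in a library, and VIM was at 1764 to 2016 CPM. The NCI-H1703 cells of all 4 libraries were thus poor in epithelial cadherin and rich in vimentin.

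Overexpression A held reads of KRT5 (19), DCN (39), COL1A2 (37) and KRT14 (9), which had 0 or 1 in the other libraries. In overexpression B, which had 0, 0, 1 and 0 reads of these genes, FLRT3 stood at 119 CPM and TENM3 at 53.6 CPM. The source of the reads in overexpression A, and any part of it in the FLRT3 and TENM3 levels, was not tested. The 3 squamous markers summed to 0.0944, 0.0952, 1.15 and 0.238 CPM and the 4 fibroblast markers, mostly COL1A1, to 8.73, 5.14, 13.2 and 11.2 CPM in vector A, vector B, overexpression A and overexpression B. The 4 leukocyte markers summed to at most 0.212 CPM and the 2 endothelial markers analysed to at most 0.0302 CPM, with KDR at 0 reads in every library.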

How the data were processed

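Messenger RNA of 2 vector and 2 EGFR-AS1 overexpression libraries of NCI-H1703 cells was sequenced from inserts of 250 to 300 bp, per the labels' protocols. The submitters' processing notes name STAR, HTSeq, DESeq2 and hg19, without versions or roles. Which annotation release, strand setting or filter was used is not given in the sources used here. Judged from the file, the deposited values are raw counts of reads, as whole numbers, with 1 row for each Ensembl identifier. Groups and letters A and B came from the sample titles.

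The members and gene lists were chosen with earlier results of these data known, and some genes of the lists are not reported here or counted in them. Symbols were found for 33626 of 48162 identifiers. Lengths, host genes and neighbours came from GENCODE 29 and promoters from RefSeq, both on GRCh38. Because the authors' build differs, only RefSeq coordinates are printed.

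The whole table was fitted with edgeR 4.0.16 in R 4.3.3 (quasi-likelihood F-test, TMM factors, filterByExpr with a minimum count of 10, group as the only term). P-values were Benjamini-Hochberg adjusted over 16106 genes and genes were called below 0.05, two-sided. Library totals on genes were 41518275 and 32601449 reads for vector A and B and 32680467 and 33750041 for overexpression A and B. Intervals of read ratios are exact 95% Clopper-Pearson intervals, scaled by library size, and like the floor of 3 reads they cover counting error only. The self-test of the fit used simulated counts. Alternatives were RLE factors, library totals, DESeq2 1.42.0, other filters, the letter as a block, other gene lengths (coding length was added after the data were seen) and each library left out.

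Named genes were the 10 family genes, EGFR-AS1, EGFR, the host and antisense genes, the nearest tested coding gene on each side, up to 4 called genes of each partner list with the smallest p, and the 5 genes most like FLRT3 and TENM3. Other genes of the partner lists and the genes absent from the vector libraries were named after their values were seen.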

Additional observations from a re-analysis of the deposited data

How the results depend on the processing

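FLRT2 was lower under all 10 alternatives of scaling, filter, tool, block and left-out library, at log2 fold changes of -0.34 to -0.16. ADGRL2 ran from -0.37 to -0.001, with no direction left without overexpression A. Neither was called under any. The log2 ratio of mean TENM3 levels was 5.64 to 5.82 over 6 alternatives. The log2 fold change of ADGRL1 was -0.69 to -0.45 with a library left out, and its call was lost without overexpression B. With a library left out, genes called ran from 1271 to 3522, higher calls from 674 to 1993 and lower calls from 490 to 1529. Calls in the 7 partner lists ran from 12 to 25, with 6 to 15 higher and 3 to 10 lower. Lone libraries were then assumed to vary like the other group, and the cause of these shifts was not tested.

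With a library left out, uncalled genes changed direction: UNC5A ran from -0.17 to 0.47, RGMB from -0.19 to 0.31, ZIC1 from -0.15 to 0.17 and MACROD1 from -0.412 to 0.035. The letters A and B are not said to pair the libraries. The A minus B differences of the groups correlated at 0.169 across genes, and with the letter as a replicate block 3467 genes were called, 23 of them in the partner lists, with ADGRL1 at -0.56. With 2 libraries a group, genes of a few reads (FLRT1, TENM1, TENM2, TENM4, ADGRL3) cannot be compared at this depth.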
